A study of Danio rerio with 32 samples.

Results

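The Hox genes of the zebrafish were described across a concentration series of retene. Genes were chosen by name alone: every row whose gene identifier carries, in the RefSeq annotation, a symbol of the Hox family (hox, a cluster letter a to d, a number and a copy letter). The annotation holds 50 such symbols, 49 protein-coding genes and 1 pseudogene, and 36 of them have a row among the 22686 genes of the table. Each sample was a pool of 9 whole larvae of the Tropical 5D line at 48 hours post fertilization (hpf), and mRNA was sequenced. All embryos were dechorionated at 4 hpf and held in static medium from 6 hpf, with DMSO alone (the vehicle control) or with retene, an alkylated polycyclic aromatic hydrocarbon, at one of 7 concentrations (0.205 and 0.512 µM, then 1.28 and 3.2 µM, then 8, 20 and 50 µM). Each of the 8 groups had 4 pools, 32 in all, and the labels do not say whether the pools of a group came from separate spawnings, so p-values measure the spread between pools only.

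Hox genes encode homeodomain transcription factors that give cells their position along the head-to-tail axis. They lie in clusters, and a gene's place in its cluster matches where and when it is switched on. Genes of low number (paralog group) act toward the head, in the hindbrain and its neural crest, and genes of high number act toward the tail and in the fin buds. Zebrafish keep extra clusters from a genome duplication at the base of the teleost fishes, so many genes exist as a and b copies. Retinoic acid sets the forward limits of many Hox genes, and Polycomb proteins keep them silent where they should not be used. In whole larvae, fewer cells of a type and less RNA per cell cannot be told apart.

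The genes with a row came from all 7 clusters. They were 11 of 14 anterior genes (paralog groups 1 to 4), 3 of 12 central genes (groups 5 to 8) and 22 of 24 posterior genes (groups 9 to 13). The 14 without a row, which are not analysed here, were hoxb4a, hoxd4a, hoxc4a, hoxa5a, hoxb5a, hoxb5b, hoxc5a, hoxb6a, hoxb6b, hoxc6a, hoxb8b, hoxc8a, hoxc9a and the pseudogene hoxa10ap. Most of the middle of the clusters was therefore unseen, and the central class rests on hoxc6b, hoxb7a and hoxb8a.

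The genes without a row had a position in common that the choice by name did not use. In the annotation of a later assembly (GRCz12tu), 13 protein-coding Hox genes lie inside the span of another Hox gene, and 12 of these 13 (92.3%) had no row. Of the other 36 protein-coding Hox genes, 1 (2.78%) had none. The enclosing genes were hoxc3a with 5 genes inside its span, hoxb3a with 3, hoxa3a and hoxb1b with 2 each, and hoxd3a with 1. hoxa4a, inside hoxa3a, was the enclosed gene that had a row. Among all other protein-coding genes of the annotation, 45.3% of those inside the span of another gene had no row, against 21.4% of the rest. Counted the same way, with any gene as the enclosing one, 12 of 19 Hox genes inside a span (63.2%) and 1 of the other 30 (3.33%) had no row. HTSeq, the counting program, was run by the authors with default settings, under which a read on the exons of 2 genes is counted for neither. They also removed genes with 0 reads in many pools, and no gene left has 0 reads in more than 8 pools. Which of these steps removed a Hox gene was not tested, and reads of an enclosing gene cannot be told apart here from reads of transcripts that run through its neighbours.

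**Figure D1:**
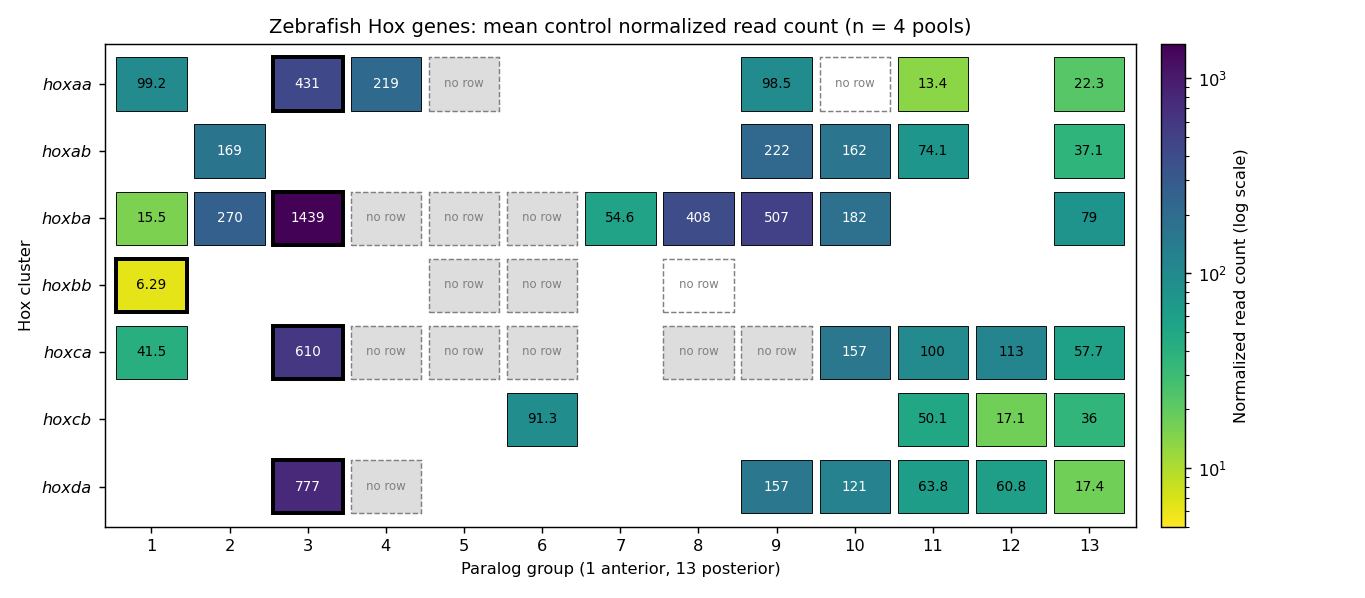
Each cell is a zebrafish Hox gene, with clusters as rows and paralog groups as columns; color and number give the mean normalized read count of the 4 control pools (log color scale), thick frames mark genes that enclose another Hox gene, gray cells are enclosed genes without a row and dashed white cells are others without a row. The gap runs through groups 4 to 6 and, in the hoxca cluster, to group 9.

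All 36 genes were read in all 32 pools. Reads on genes numbered 7720701 to 8656870 per pool, and a normalized read count here is reads divided by the pool's size factor (0.940 to 1.08). In the control the mean counts ran from 6.29 for hoxb1b to 1439 for hoxb3a, with a median of 98.9. There were 5 genes under 20, 19 under 100 and 6 of at least 300. The 5 with the most reads were hoxb3a (1439 ± 66.2; SD, n = 4 for this and the next values), hoxd3a (777 ± 36.7), hoxc3a (610 ± 27.2), hoxb9a (507 ± 27.1) and hoxa3a (431 ± 24.8). Group 3 genes help specify the posterior hindbrain and pharyngeal region, and 4 of these 5 belong to that group; all 4 are enclosing genes. The 3 with the fewest were hoxb1b (6.29 ± 1.93) and hoxb1a (15.5 ± 2.41), which pattern the early hindbrain, and hoxa11a (13.4 ± 4.05), a gene of the fin buds and trunk. Read counts also follow transcript length, which is not given here, so these counts do not rank the genes by abundance.

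Precision followed the reads. For hoxb3a the spread between pools of a group was 5.37% of the mean, with 2.69% from counting alone. For hoxa1a it was 12.6%, with 9.24% from counting, and for hoxb1b 37.0%, with 39.6% from counting. The sum of all 36 genes was 6978 ± 235 normalized reads in the control and 6902 ± 235 at 50 µM, so the family's total differed by less than 1 SD. The group means of that sum ran from 6816 at 20 µM to 7272 at 0.512 µM.

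Exposure itself was plain in the same libraries. cyp1a, the classic target gene of the aryl hydrocarbon receptor, had a mean of 26.1 normalized reads in the control and 19827 at 50 µM. By limma with Benjamini-Hochberg adjustment over all genes, cyp1a and cyp1c1 were higher at each concentration from 1.28 to 50 µM. Some pools stood apart over all genes: on the first principal component (19.0% of the variance) control pool 2 scored -30.3, 8 µM pool 4 -26.2 and 50 µM pool 2 -12.9, with all other pools from -5.06 to 11.1, and on the second (15.0%) 50 µM pool 4 scored -26.1. Across the 36 Hox genes control pool 2 was the lowest of its 4 pools for 18 genes and the highest for 8, and its median difference from the other 3 pools was -0.09 on the deposited log2 scale. The limma calls of Hox and related genes were also made without these 4 pools. Genes that lost a call are named, counts of calls that changed are given, and genes that gained a call are not named. Sums, class medians, sign counts, ratios, correlations and separations of pools are given with all pools only. How far they depend on these 4 pools was not tested.

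No Hox gene passed the test against the control at any single concentration. Each of the 7 concentrations was compared with the control by limma on the deposited log2-scale values of all 22686 genes, with an adjusted p-value under 0.05 as the threshold, and 0 of 36 Hox genes passed at each. The share of all genes that passed was 0% in both of the lowest groups (0.205 and 0.512 µM) and 0.0838% in each of the next pair (1.28 and 3.2 µM). It was 0.344% for 8 µM, 0.586% for 20 µM and, in the highest group, 2.48%. At an unadjusted p under 0.05 the lowest concentration had 0 Hox genes (7.44% of all genes), 0.512 µM had 2 (6.32%) and 1.28 µM had 4 (13%). The next steps, 3.2 and 8 µM, had 5 Hox genes each (9.72% and 9.94% of all genes). There were 3 for 20 µM (11%) and 10 for the highest concentration (15.2%). As shares of 36, in the order of concentration, these were 0%, 5.56%, 11.1%, 13.9%, 13.9%, 8.33% and 27.8%. Limma on the recovered reads with voom weights also called 0 at each concentration.

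The 95% confidence intervals give the differences that these data leave room for. Over the 36 genes they ran at most from -0.32 (hoxb2a) to 0.43 (hoxa13b) at 50 µM on the deposited log2 scale, and at most from -0.42 (hoxc1a) to 0.45 (hoxa13b) at 1.28 µM. That scale compresses genes with few reads, so for them the limits are wider in counts. For hoxa13b at 50 µM the mean counts were in a ratio of 0.54 on the log2 scale where the deposited values differed by 0.23. The same 2 values were 0.27 and 0.16 for hoxa1a and -0.18 and -0.17 for hoxb3a. The median over Hox genes at 50 µM was 0.04, against 0.00 over all genes, with 21 of 36 above 0 (all genes 11614 of 22686). Across the other concentrations the Hox median lay between 0.01 at 20 µM and 0.06 at 3.2 µM.

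A trend over concentration was seen in 3 Hox genes, all anterior: hoxb3a and hoxb2a fell and hoxd3a rose. The trend is the slope over the rank of the 8 groups, from the control to 50 µM, and all 32 pools enter it. The share of all genes called was 4.95%, of which 2.34% falling and 2.61% rising, and the 3 of 36 Hox genes are 8.33%, with 2 falling (5.56%) and 1 rising (2.78%). hoxb3a and hoxd3a also had the most reads of the family. The posterior gene hoxc13a and the central gene hoxb8a had slopes of 0.023 and -0.025 and were not called. Both lie farther from 0 than the 0.020 of hoxd3a. At an unadjusted p under 0.05 there were 10 Hox genes (27.8%), 6 with a slope below 0 and 4 above it, where all genes had 16.7%. The family was not tested as a set.

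**Figure D2:**
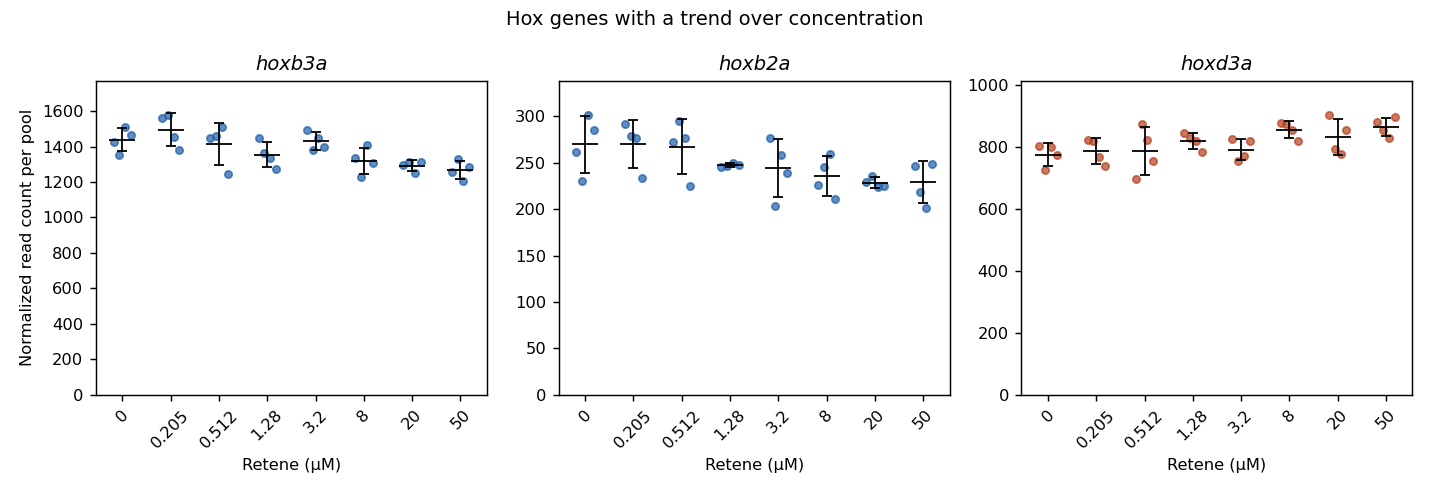
Normalized read count (vertical axis, from 0) of hoxb3a, hoxb2a and hoxd3a in each pool (points) by retene concentration (horizontal axis, 0 is the DMSO control), with the mean and SD of 4 pools in black. The hoxb3a mean goes from 1439 in the control to 1269 at 50 µM, hoxb2a from 270 to 229 and hoxd3a from 777 to 866.

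hoxb3a, which acts in the posterior hindbrain, gave the clearest trend of the family. Its normalized counts in the 4 control pools were 1427, 1354, 1509 and 1467. At 0.205 µM they were 1563, 1581, 1452 and 1383, and at 0.512 µM 1448, 1459, 1510 and 1244. Both low concentrations overlapped the control, with 2 pools above its range at 0.205 µM and 1 on each side of it at 0.512 µM. At 1.28 µM the counts were 1447, 1363, 1335 and 1274, at 3.2 µM 1495, 1380, 1446 and 1399, and at 8 µM 1333, 1231, 1411 and 1307. At 3.2 µM all 4 pools lay within the control's range, and at 8 µM 3 of 4 lay below it. At 20 µM the counts were 1294, 1314, 1250 and 1312, and at 50 µM 1259, 1330, 1207 and 1282. All 8 pools of the 2 highest concentrations were below all 4 control pools.

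The slope of hoxb3a was -0.028 ± 0.0062 (SE) per step on the deposited log2 scale (limma, unadjusted p = 5.43e-05, adjusted p = 0.00323), which made it number 380 of all genes by trend p. Over 7 steps this is -0.20 (95% interval -0.28 to -0.11), a fitted fall of 12.7% on that scale and not in counts. At 50 µM alone the mean count was 88.2% of the control, with a limma difference of -0.17 ± 0.06 (SE) and an adjusted p of 0.113. The exact permutation test of 4 pools against 4, two-sided, gave p = 0.0286 at 20 µM and at 50 µM, the smallest it can give, and 0.15 after adjustment over the 21 such tests of the 3 genes. These tests were run only on the genes called for a trend in the same pools, so they are not separate support. Leaving out the 50 µM group from the trend left a slope of -0.027 with an adjusted p of 0.0693, so the call rests on that group while the slope does not.

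hoxb2a, its neighbour in the hoxba cluster and a gene of the hindbrain and the second pharyngeal arch, also fell. The control pools had 261, 231, 302 and 285 normalized reads, those at 20 µM 230, 236, 224 and 225, and those at 50 µM 247, 219, 201 and 249. The control's lowest pool, replicate 2, lies inside the range of the highest concentrations, so the groups overlap. The other group means ran from 270 at 0.205 µM through 267, 248 and 244 to 236 at 8 µM, in the order of concentration, with SDs from 1.68 to 31.2. Neighbouring groups in this order did not differ beyond their SDs. The slope was -0.030 ± 0.0074 (SE; limma, adjusted p = 0.0112), over 7 steps -0.21 (95% interval -0.31 to -0.10), a fitted fall of 13.4% on the deposited scale. That scale compresses the change in counts. For hoxb2a at 50 µM the mean counts were in a ratio of -0.24 on the log2 scale, where the deposited values differed by -0.17. At 50 µM the mean was 84.9% of the control (adjusted p = 0.24), and the exact permutation p was 0.114. Without the 20 µM group the adjusted p was 0.0566 and without the 50 µM group 0.0554, with the slope at -0.029 and -0.032.

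hoxd3a, of the same paralog group as hoxb3a, went the other way. Its control pools had 804, 725, 801 and 776 normalized reads. At 8 µM the pools had 879, 874, 855 and 822, at 20 µM 906, 796, 780 and 854, and at 50 µM 881, 857, 829 and 898. All 4 pools at 8 µM and all 4 at 50 µM were above every control pool, while those at 20 µM overlapped. The means at 0.205, 0.512, 1.28 and 3.2 µM were 788, 788, 820 and 793. The slope was 0.020 ± 0.0060 (SE, limma adjusted p = 0.0468), over 7 steps 0.14 (95% interval 0.05 to 0.22) or a fitted 9.93% on the deposited scale. At 50 µM the mean was 112% of the control (limma adjusted p = 0.21). The exact permutation p there was 0.0286, the smallest possible, and 0.15 after adjustment over the 21 such tests.

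The hoxd3a call was close to the threshold and was lost under 31 of 53 other settings, with its slope above 0 in all 53. Without the 4 pools that stood apart the slope was 0.016 and the adjusted p 0.223. With a replicate block the adjusted p was 0.0546. Without the 50 µM group it was 0.289. hoxb3a and hoxb2a stayed called without the 4 pools, with limma adjusted p-values of 0.00397 and 0.00592. Of all genes 919 were then called for a trend, against 1123 with all pools.

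Within groups the 3 genes moved together, although their slopes differ in sign. Over the 32 pools, after removing each group's mean, the correlation was 0.67 between hoxb2a and hoxb3a, 0.48 between hoxb3a and hoxd3a and 0.54 between hoxb2a and hoxd3a; the pools share library and size factor, and these values are descriptions. The median over the 89 pairs of Hox genes of 1 cluster was 0.15, and over the 541 pairs of different clusters 0.13. Those medians include many genes with few reads, whose counting spread lowers a correlation. They are therefore not a like comparison for the 3 genes. The ratio of hoxb3a to hoxd3a counts in a pool was 1.85 ± 0.05 in the control (1.77 to 1.89). From 8 to 50 µM it was 1.54 ± 0.10, 1.55 ± 0.10 and, in the last group, 1.47 ± 0.06 (1.43 to 1.55). In the 4 lower groups, from 0.205 to 3.2 µM, it was 1.90 ± 0.02, 1.81 ± 0.20, 1.65 ± 0.04 and 1.81 ± 0.07. All pools at 1.28 µM and at 8, 20 and 50 µM were below the control's lowest, while those at 3.2 µM overlapped it, so the ratio did not follow the order of concentration throughout. This ratio was formed after the slopes were seen and is given without a test.

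Counts of neural markers also differed between groups. Of a list of 9 genes of hindbrain and spinal cord neurons, 8 had a row. olig2, a gene of motor neuron and oligodendrocyte progenitors, fell with concentration (limma slope -0.029, adjusted p = 0.0108). elavl3, a general neuronal gene, was lower at 1.28 µM. In each of these fits 1 of 8 genes was called (12.5%). Over all genes the shares were 4.95% for the trend and 0.0838% at 1.28 µM. The summed normalized count of the 8 markers was 15116 to 16342 in the control pools and 12647 to 13563 for 1.28 µM. It was 12519 to 15638 for 8 µM and 13696 to 15808 for 50 µM, and no marker was at 0 in all pools. The mean sum was lowest at 1.28 µM (13199, against 15470 in the control), where hoxb3a and hoxb2a had mean counts of 94.1% and 91.8% of the control. At 20 and 50 µM the mean sums were higher, 14355 and 14592. There hoxb3a was at 89.8% and 88.2% of the control, and hoxb2a at 84.8% and 84.9%. The sum leans on elavl3, which alone gave 8376 of the 15470 in the control. All 8 markers had slopes below 0, with a median of -0.014 against 0.0002 over all genes. The olig2 mean was 325 in the control and 283, 268 and 281 at 8, 20 and 50 µM. The part of neural cell content in the hoxb2a and hoxb3a trends was not tested.

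**Figure D3:**
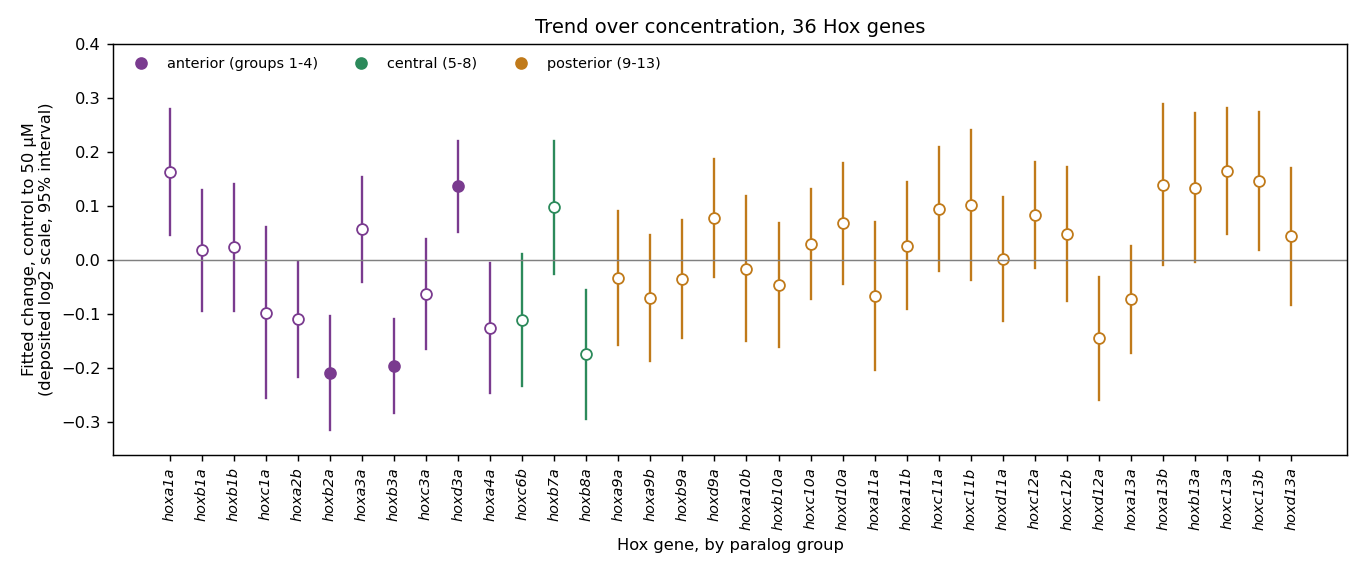
Fitted change from the control to 50 µM (7 steps of the slope, deposited log2 scale, points) with its 95% interval (lines) for each of the 36 Hox genes, ordered by paralog group and colored by class. Filled points are the 3 genes called at an adjusted p under 0.05, and 10 of 36 intervals leave out 0.

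Among the other anterior genes none was called. hoxa1a, which acts early in hindbrain patterning, had 99.6, 108, 96.9 and 92.7 normalized reads in the control and 132, 126, 138 and 127 at 3.2 µM, all 4 above the control. At 8 µM its pools had 119, 156, 113 and 110, again all above. The limma difference was 0.24 ± 0.08 (SE) at 3.2 µM with an adjusted p of 0.313 and 0.19 at 8 µM with 0.377. At 50 µM its mean was 121% of the control, and its slope was 0.023 with an adjusted p of 0.0996. The separation of its pools at 3.2 µM was not particular to it. There hoxa9a, hoxc11b, hoxc12a and hoxd9a were also wholly above the same 4 control pools. For hoxb1a, with few reads, the largest difference was 0.17 at 1.28 µM (mean counts 15.5 and 23.4, adjusted p = 0.278). hoxc3a and hoxa3a, with many reads, had slopes of -0.0089 and 0.0081 (adjusted p = 0.59 and 0.61). Over the 11 anterior genes 5 slopes were above 0 and 6 below, with a median of -0.0089 against 0.0002 over all genes.

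Both group 2 genes, hoxa2b and hoxb2a, and the only group 4 gene, hoxa4a, had slopes below 0. hoxa2b, which gives the second pharyngeal arch its identity, and hoxa4a had slopes of -0.016 and -0.018 with adjusted p-values of 0.282 and 0.272. Group 3 had 2 slopes above 0 and 2 below, and group 1 had 3 above and 1 below.

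Of the 3 central genes, hoxb8a had the smallest trend p. Its 4 control pools held 418, 412, 400 and 402 normalized reads, close to each other, and those at 50 µM 414, 296, 394 and 346. The lowest 50 µM pool was replicate 2, a pool that stood apart over all genes. The slope was -0.025 ± 0.0084 (SE) with an adjusted p of 0.0834. hoxc6b had a slope of -0.016 and hoxb7a one of 0.014, neither called. hoxb8a lies toward the tail of the same cluster as hoxb3a, and between them the annotation has hoxb4a, hoxb5a, hoxb6a and hoxb7a, of which hoxb7a alone had a row.

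Posterior genes had more slopes above 0 than below, with none called. There were 14 of 22 above 0, with a median of 0.0054, where all genes had 11471 of 22686 above 0. At 50 µM 16 of 22 differences were above 0, with a median of 0.06, and over all genes 11614 of 22686 were above 0. The anterior median there was -0.10 with 4 of 11 above 0. The posterior median was also above 0 at the other 6 concentrations, from 0.02 at 0.205 and at 20 µM to 0.09 at 3.2 µM. All these differences share the 4 control pools, among them pool 2, the lowest of its 4 for 18 of the 36 Hox genes. The anterior and posterior classes were not tested against each other.

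hoxa9a had the smallest p of the family at 0.205 µM, with mean counts of 98.5 in the control and 117 there, a difference of 0.14 ± 0.08 (SE) and an adjusted p of 0.665. Its 50 µM mean was 103, and its slope was -0.0047. hoxb9a, with many reads, had 472, 533, 523 and 501 in the control pools and 524, 470, 532 and 451 at 50 µM, which overlap.

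Group 13, the genes of the tail end and the distal fin, had 5 of 6 slopes above 0, where all genes had 11471 of 22686. hoxc13a had 57.2, 64.8, 56.4 and 52.3 normalized reads in the control and 73.2, 63.6, 82.4 and 79.0 at 50 µM, where replicate 2 alone overlapped the control. Its slope was 0.023 ± 0.0082 (SE; adjusted p = 0.0959). hoxc13b had 46.3, 26.7, 41.4 and 29.6 in the control and 50.1, 40.5, 50.6 and 59.8 at 50 µM, and hoxa13b 27.6, 26.7, 54.5 and 39.5 in the control and 62.1, 40.5, 56.6 and 55.7 at 50 µM. Both overlap the control. On the deposited scale hoxa13b had the largest difference of any Hox gene at any concentration, 0.25 ± 0.09 (SE) at 1.28 µM, where its pools held 63.5, 56.0, 58.1 and 43.6 (adjusted p = 0.267). In mean counts this was 149% of the control, and hoxb1a, with fewer reads, was at 151% there. hoxc13b had the smallest p at 0.512 µM, with a difference of 0.19 (adjusted p = 0.759). hoxb13a and hoxd13a had slopes of 0.019 and 0.0063, and hoxa13a one of -0.010.

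Markers of the tail bud and presomitic mesoderm, where group 13 genes are used, were also counted. There were 6 of 7 with a row, none called, and their summed normalized count was 293 to 317 in the control pools and 304 to 366 at 50 µM. Of 8 pectoral fin bud markers 6 had a row, and and2, which encodes a fibre protein of the fin fold, fell (slope -0.056, adjusted p = 0.000829). The others were not called: and1, fgf24, shha and hand2 had slopes above 0 and tbx5a one below 0. The list's median slope was 0.00035. Of the other marker lists, trunk muscle (6 of 6 with a row) had none called for a trend. The list drawn up for notochord (4 of 5) had matn4 rising and shhb falling, and neither gene is shown here to be confined to notochord. Its other members, ntd5 and col9a1b, had slopes of 0.015 and 0.025 and were not called. The pronephros list (6 of 6) had cdh17 rising, while all its other slopes were below 0 and the list's median was -0.0096. A list of liver, pancreas, heart, skin, lens and blood genes (6 of 6) had the skin keratin gene krt4 falling. For a trend, 4.95% of all genes were called. The marker shares were 0% for tail bud and trunk muscle and 16.7% for fin bud, pronephros and the mixed list. For the list drawn up for notochord the share was 50%, 2 of 4 genes. In lists this short, 1 called gene makes a large share. No marker on these lists was at 0 in all pools. The part of tissue content in the posterior Hox values was not tested.

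**Figure D4:**
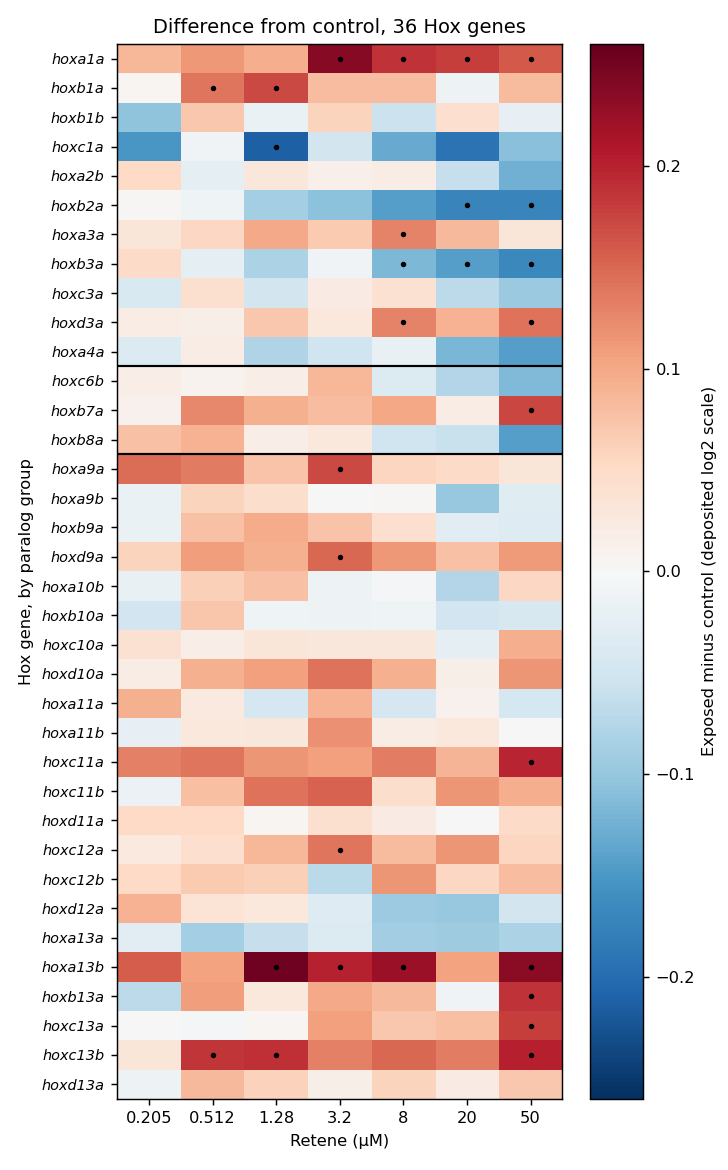
Difference between each retene concentration and the control (color, deposited log2 scale) for the 36 Hox genes, ordered by paralog group with lines between the anterior, central and posterior classes. Dots mark an unadjusted p under 0.05, of which there are 10 at 50 µM; no cell passed after adjustment.

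At 50 µM the 4 exposed pools lay wholly above the 4 control pools for 2 Hox genes, hoxc11a and hoxd3a (5.56%, against 4.13% of all genes), and wholly below for hoxb3a (2.78%, against 3.02%). hoxc11a, a trunk and tail gene, had a mean of 100 normalized reads in the control and 126 at 50 µM (difference 0.20 ± 0.07 SE, adjusted p = 0.175). These shares are near those of all genes. At the other concentrations the share of all genes with pools so separated was not counted, so separation there has no background to set it against.

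The F-test of any difference among the 8 groups called 0 of 36 Hox genes, against 1.86% of all genes (limma). At an unadjusted p under 0.05 it held 1 Hox gene, hoxb3a (2.78%), whose adjusted p was 0.119, against 12.9% of all genes, and voom weights also gave 0 calls. hoxb2a, hoxb1a, hoxb8a and hoxa1a followed with adjusted p-values of 0.433, 0.448, 0.476 and 0.49.

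The 7 pairs of a and b copies with rows for both did not always share a direction. In 5 pairs the slopes had the same sign. hoxc13a and hoxc13b, for example, had 0.023 and 0.021, and hoxc11a and hoxc11b 0.014 and 0.015. In 2 pairs the signs differed: hoxa13a and hoxa13b with -0.010 ± 0.0070 and 0.020 ± 0.011 (SE), and hoxa11a and hoxa11b with -0.0095 and 0.0039. No member of these pairs was called, and the differences within pairs were not tested.

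By cluster, the median slope was -0.0071 for hoxaa (6 genes), -0.0022 for hoxab (5), -0.0057 for hoxba (8), 0.0082 for hoxca (6), 0.011 for hoxcb (4) and 0.0080 for hoxda (6). The hoxbb cluster has 1 gene, hoxb1b, with 0.0034. hoxba held both falling genes and also hoxb7a and hoxb13a, with slopes above 0.

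The genes that work with or set the Hox genes were described from lists of symbols. Of 14 cofactors, the TALE homeodomain partners of Hox proteins, all had a row and 1 (7.14%, against 4.95% of all genes) was called for a trend. pbx2 fell with concentration: its control pools had 538, 501, 505 and 506 normalized reads, those at 20 µM 433, 431, 451 and 401, and those at 50 µM 430, 515, 433 and 360. All pools at 20 µM were below the control and those at 50 µM overlapped it through replicate 2. The slope was -0.027 ± 0.0071 (SE; limma, adjusted p = 0.0163). The call was lost without 50 µM replicate 4 (adjusted p = 0.0582), without the 50 µM group (0.0564) and without the control, 0.512 or 20 µM group (0.138, 0.0546 and 0.0904), with the slope below 0 each time. meis2a followed with a slope of 0.020 (adjusted p = 0.0604) and was called with voom weights (adjusted p = 0.0455), and the list's median slope was -0.010 against 0.0002 over all genes.

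Of the 23 retinoic acid genes 22 had a row. The missing one was aldh1a2, a gene of retinoic acid synthesis, so its level is not known here. The 2 genes called for a trend (9.09%, against 4.95% of all genes) both encode enzymes that break retinoic acid down. cyp26b1 had 437, 384, 388 and 407 normalized reads in the control and 325, 363, 328 and 324 at 50 µM, all below the control. Its slope was -0.032 ± 0.0068 (SE; limma, adjusted p = 0.00214), and it stayed called under all 53 other settings. cyp26c1, which is used in the hindbrain, had 165, 150, 174 and 196 in the control and 112, 131, 120 and 112 at 50 µM, again all below. It was the 1 gene of these lists called at a single concentration, with a difference of -0.33 ± 0.08 (SE) at 50 µM (adjusted p = 0.0219), a mean count of 69.5% of the control, and a slope of -0.041 (adjusted p = 0.00575). The call at 50 µM was lost without control replicate 3 or 4 (adjusted p = 0.054 and 0.0895) or 50 µM replicate 1, 3 or 4 (0.0786, 0.0536 and 0.0711). It was also lost with only the 2 groups fitted (0.0718) and with adjustment over all 7 concentrations (0.074), and kept with voom weights. Without the 50 µM group the cyp26c1 slope was -0.029 and the adjusted p 0.258. cyp26a1, of the same family, had a slope of -0.020 and was not called (limma adjusted p = 0.157). At an unadjusted p under 0.05 the list had 6 genes for the trend (27.3%, against 16.7% of all genes). For the F-test it had 7 (31.8%, against 12.9%). The median slope of the list was 0.0018.

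Of 15 regulators with a row of 18 (among them the Cdx genes, egr2b and mafba) none was called in any limma comparison. The regulators mafbb, hnf1ba and gbx2 had no row. The smallest trend p-values were those of nr6a1a (slope -0.025, adjusted p = 0.0815) and cdx1a (slope 0.023, adjusted p = 0.113). At an unadjusted p under 0.05 there were 3 for the trend (20%, against 16.7% of all genes). Of the single concentrations there were 1 for 1.28 µM (6.67%, against 13%), 4 for 8 µM (26.7%, against 9.94%) and 2 for 50 µM (13.3%, against 15.2%), and voom weights also gave 0 calls. Of 32 Polycomb and Trithorax genes 31 had a row, and 1 (3.23%, against 4.95% of all genes), cbx2, a Polycomb chromobox gene, fell with concentration. Its pools held 378, 384, 395 and 360 normalized reads in the control and 355, 294, 349 and 308 at 50 µM, all below the control, with a slope of -0.027 and an adjusted p of 0.0468. That call was lost without the 4 pools that stood apart (adjusted p = 0.277), with voom weights (0.0538) and under 33 of 53 settings in all. The next was kdm6bb, a histone demethylase gene, with a slope of -0.035 (limma adjusted p = 0.111). Its control pools held 1026, 1733, 910 and 985 normalized reads. The highest was replicate 2, a pool that stood apart over all genes.

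**Figure D5:**
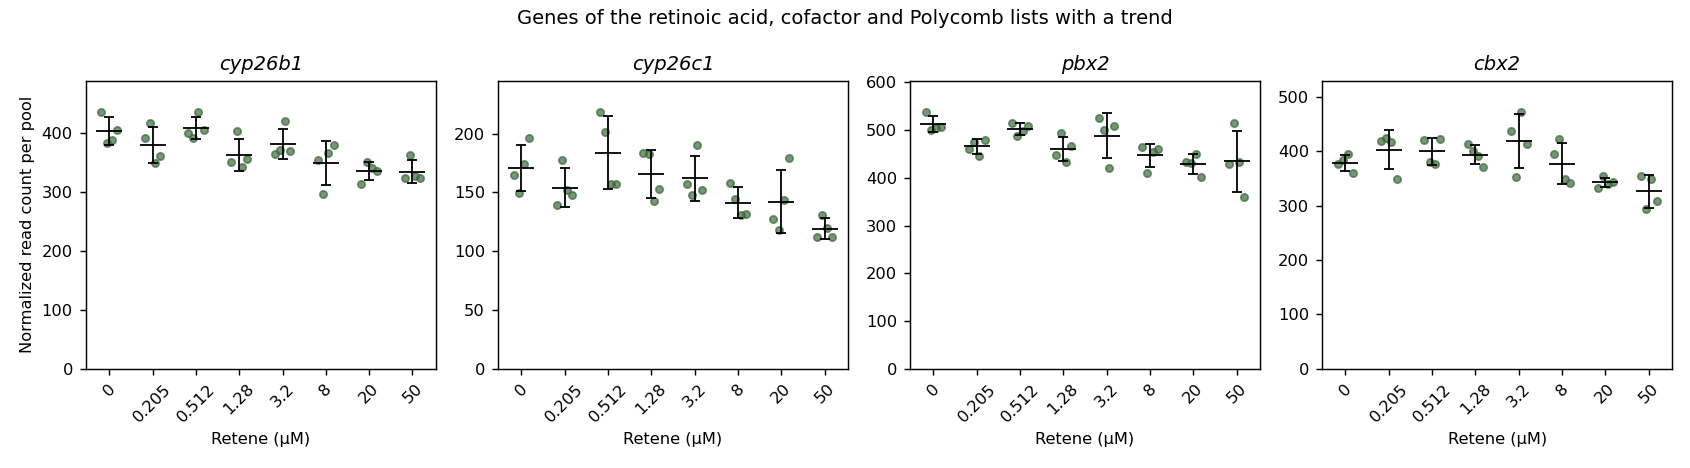
Normalized read count (vertical axis, from 0) of cyp26b1, cyp26c1, pbx2 and cbx2 in each pool (points) by retene concentration (horizontal axis, 0 is the DMSO control), with the mean and SD of 4 pools in black. The mean of cyp26c1 goes from 171 in the control to 119 at 50 µM and that of cyp26b1 from 404 to 335.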

How the data were processed

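Per the labels and the study's methods, the authors used STAR for alignment to GRCz11, HTSeq for read counts per gene and DESeq2 for normalization, after dropping genes with many counts of 0. The deposited log2 values have the form of DESeq2's variance-stabilizing transformation, a step the methods do not name. Reversing its closed form gave whole reads for 100% of values (tolerance 0.01 reads), and size factors as the median of ratios. Symbols came from RefSeq by gene identifier: 21030 of 22686 rows matched.

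Tests used limma 3.58.1 in R 4.3.3 on the deposited values, with 1 mean per group or 1 slope over group rank, variances moderated along a mean-variance trend, and p-values adjusted over all genes by Benjamini-Hochberg (threshold 0.05). DESeq2 was not rerun on the recovered reads; voom weights were the alternative that used them. The scripts were tested on simulated data. Figures used matplotlib 3.10.9 in Python 3.11.15.

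The Hox genes and the lists of related and marker genes were chosen with earlier results of these data known. Named Hox genes are those called by any fit, the 5 smallest trend and F-test p-values, the smallest p at each concentration, and the 5 highest and 3 lowest control counts; others are given by symbol, range or count. Of each related list, called genes are named, otherwise the 2 with the smallest trend p. Alternatives covered the value scale, voom weights, a minimum mean count of 10, moderation, normalization, thresholds of 0.01 and 0.1, trend scores, a replicate block and each pool left out. No sequences, transcript lengths or coordinates are given. Pools had 7720701 to 8656870 reads on genes, which with 4 pools a group sets the precision; intervals are limma's 95% intervals. No sequencing batches are labelled.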

Additional observations from a re-analysis of the deposited data

Results flagged for a closer look

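In 4 of the 120 groups of 4 pools checked (15 named Hox genes in 8 groups), 1 pool lay far from the other 3 by Dixon's gap on the deposited scale. Chance alone gives about 1 in 20. In the 3.2 µM group, replicate 2 had 110 normalized reads of hoxa9a where the others had 123 to 125. hoxb1a had 24.2 in replicate 2 at 0.205 µM, with the others at 12.6 to 14.1, and 11.9 in replicate 1 at 20 µM, with the others at 15.7 to 16.3. hoxb1b had 8.02 in replicate 1 at 50 µM, with the others at 4.82 to 5.06. None of these pools is among the 4 that stood apart over all genes, and none belongs to hoxb3a, hoxb2a or hoxd3a.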

How the results depend on the processing

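The count of 0 Hox genes at each of the 7 concentrations held under all 13 other settings and when each of 8 pools was left out. The 3 Hox genes with a trend became 1 at an adjusted p under 0.01, 6 under 0.1, 1 with the concentration itself as the score, 1 without the 20 µM group and 0 without the 50 µM group. It was 4 with log2(1 + concentration) as the score and 2 with no mean-variance trend, with a robust prior, without the 4 pools that stood apart, and without the 0.205, 0.512, 1.28 or 8 µM group; leaving out single pools gave 2 to 3, and the F-test count 0 to 1 (hoxb3a, without 0.512 µM replicate 4). With a replicate block 2 Hox genes had a trend, since hoxd3a was lost (adjusted p = 0.0546); the numbers do not pair the pools (median correlation of same-numbered pools 0.0022, of others 0.0049). Of the related genes, the 1 call at 50 µM became 2 with a minimum mean count of 10, 0 at 0.01, 5 at 0.1, 0 with adjustment over all 7 concentrations, 0 with only the 2 groups compared and 2 without the 4 pools, with 0 to 5 when single pools were left out. The 4 trend calls became 2 at 0.01, 7 at 0.1, 2 without the 20 µM and 1 without the 50 µM group (3 to 5 with single pools left out). The F-test count of 0 became 1 on log2(count + 0.5), 1 with a robust prior and 3 at 0.1 (0 to 1 with single pools left out). The slope of hoxb3a lay between -0.033 and -0.025 and that of hoxb2a between -0.040 and -0.027 under the settings that kept the rank of concentration as the score, and no called slope changed sign. The causes of these changes were not tested. Levels per transcript length were not run, since no lengths were at hand. Leaving out groups or the 4 pools was chosen after seeing the data. Depth limits the genes with few reads most: for hoxb1b counting alone gives 39.6% of spread.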
